A study of Mus musculus with 21 samples.

Results

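Intragenic PSME3 peaks with H3K4me3 were regions inside genes of cycling C2C12 myoblasts where a peak of the proteasome activator PSME3 lay on a peak of trimethylated lysine 4 of histone H3 (H3K4me3). They were chosen on the measured peaks of the pooled cycling lists, as PSME3 peaks that shared at least 1 bp with an H3K4me3 peak, overlapped a gene of the mouse build GRCm38, and lay more than 1 kb from every gene start and end. Of 5812 pooled PSME3 peaks, 1419 (24.4%) met the rule, and they are called members here. Each member overlapped 1 H3K4me3 peak. In 1093 members (77.0%) that H3K4me3 peak also lay wholly inside genes and more than 1 kb from every boundary, and these are called stand-alone members. In the other 326 the H3K4me3 peak reached within 1 kb of a gene start or end, and these are called boundary-connected members.

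The lists came from CUT&RUN, in which an antibody directs a nuclease to cut out the DNA around its target in permeabilized cells. C2C12 is an established mouse myoblast line. Cycling cells grew in 20% FBS and were frozen native, that is unfixed, in 10% DMSO, with 3 libraries for PSME3 and 3 for H3K4me3. Day 2 cells were taken at confluency into 2% horse serum for 48 hours and assayed either fresh or frozen, and either native or crosslinked with 0.1% formaldehyde for 5 minutes and quenched with 12.5 mM glycine, with 1 library of each antibody for each of these 4 preparations. No genotype or drug set the groups apart, since all libraries came from the same untreated line. The lists give positions, fold enrichment over background and q-values but no numbers of reads. The depth is therefore unknown, fold enrichment is compared only within a list, and a missing peak means only that none was called. All 6 genes that mark myoblasts (Myod1, Myf5, Des, Itga7, Cdh15 and Chrna1) had an H3K4me3 peak within 1 kb of a boundary in the pooled cycling list and in each day 2 list, and none of the 4 genes of other lineages (Cd3e, Ptprc, Alb and Neurod1) had one.

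PSME3, also called PA28γ, is a ring that caps the 20S proteasome in the nucleus and opens it to short or unfolded proteins without need for ubiquitin. H3K4me3 is laid down around active transcription starts, where it spreads over the first nucleosomes, and it is scarce in the body of a gene unless a start lies there. Many genes hold such internal starts, also called alternative or internal promoters, from which a shorter transcript is made, and most promoters of broadly active genes are rich in CG dinucleotides.

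Of the 32851 transcription starts that RefSeq lists for 27025 mouse genes, 4728 lay inside genes and more than 1 kb from every gene boundary. Members covered 192 of these internal starts, in 169 genes. In all, 172 members (12.1%) covered a listed start, 108 of the stand-alone and 64 of the boundary-connected ones, against 34.1% of all pooled PSME3 peaks, most of which lay at gene boundaries. Every covered start belonged to a gene that hosted the member. Some of the starts are shown, in the direction of transcription, from 120 bases before the start to 30 bases from it on, with each CG dinucleotide in capitals, from RefSeq on GRCm38.p6. The first 5 lay under stand-alone members that rank among the strongest by PSME3 or H3K4me3 and show what the covered sequence looked like, and the last 2 are internal starts in genes known for internal promoters that had no H3K4me3 peak in any pooled or day 2 list, chosen for contrast after their values were seen.
Sertad2: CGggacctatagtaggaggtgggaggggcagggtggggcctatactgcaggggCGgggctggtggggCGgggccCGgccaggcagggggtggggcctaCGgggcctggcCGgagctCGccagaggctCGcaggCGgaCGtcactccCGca
Lmna: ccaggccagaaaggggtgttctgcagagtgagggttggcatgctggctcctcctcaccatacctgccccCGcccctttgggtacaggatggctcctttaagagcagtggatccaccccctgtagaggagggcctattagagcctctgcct
Specc1: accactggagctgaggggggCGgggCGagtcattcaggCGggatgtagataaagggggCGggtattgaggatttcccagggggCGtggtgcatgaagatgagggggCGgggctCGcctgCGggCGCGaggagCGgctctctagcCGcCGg
Hivep2: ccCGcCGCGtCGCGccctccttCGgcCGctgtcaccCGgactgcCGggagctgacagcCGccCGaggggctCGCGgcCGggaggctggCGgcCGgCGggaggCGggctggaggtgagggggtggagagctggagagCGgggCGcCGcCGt
Runx1: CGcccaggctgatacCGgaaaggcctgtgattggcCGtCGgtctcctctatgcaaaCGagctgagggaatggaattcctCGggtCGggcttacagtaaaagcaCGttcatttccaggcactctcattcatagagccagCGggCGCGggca
Dmd: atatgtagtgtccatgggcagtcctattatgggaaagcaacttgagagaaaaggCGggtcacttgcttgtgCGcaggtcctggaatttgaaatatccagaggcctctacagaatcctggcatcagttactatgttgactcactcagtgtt
Mylk: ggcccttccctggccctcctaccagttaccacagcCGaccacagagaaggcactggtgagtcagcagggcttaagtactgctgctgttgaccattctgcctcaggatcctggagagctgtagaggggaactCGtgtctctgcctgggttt
These starts lie at chr11:20631857-20632006 on the plus strand (Sertad2), chr3:88503323-88503472 on the minus strand (Lmna), chr11:62076904-62077053 on the plus strand (Specc1), chr10:13966259-13966408 on the plus strand (Hivep2), chr16:92697300-92697449 on the minus strand (Runx1), chrX:82948750-82948899 on the plus strand (Dmd) and chr16:34784830-34784979 on the plus strand (Mylk).

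The covered starts were rich in CG, except that of Lmna. In the whole window of 300 bases, the Sertad2 start held 24 CG dinucleotides, Specc1 20, Hivep2 35 and Runx1 35, against 1 at Lmna, 2 at Dmd and 4 at Mylk. The same held over all internal starts. The 192 windows under members held a median of 21.5 CG dinucleotides, with an observed over expected ratio of CG of 0.754 (quartiles 0.597 and 0.864), where a ratio near 1 means that CG is as frequent as the C and G content predicts. The 1322 internal starts with an H3K4me3 peak but no PSME3 peak had a median ratio of 0.691 (quartiles 0.454 and 0.865), and the 3182 internal starts with neither had one of 0.224 (quartiles 0.123 and 0.357). The ratio was above 0.6 at 74.5% of the starts under members, 61.2% of those with H3K4me3 alone and 7.67% of those with neither, and at 35.8% of all listed starts. It was above 0.6 at 85.8% of the starts under boundary PSME3 peaks with H3K4me3. The C and G content followed the same order, with medians of 62.7%, 60% and 48.7%. Starts are not independent of each other, and the figures are given as a description.

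**Figure D1:**
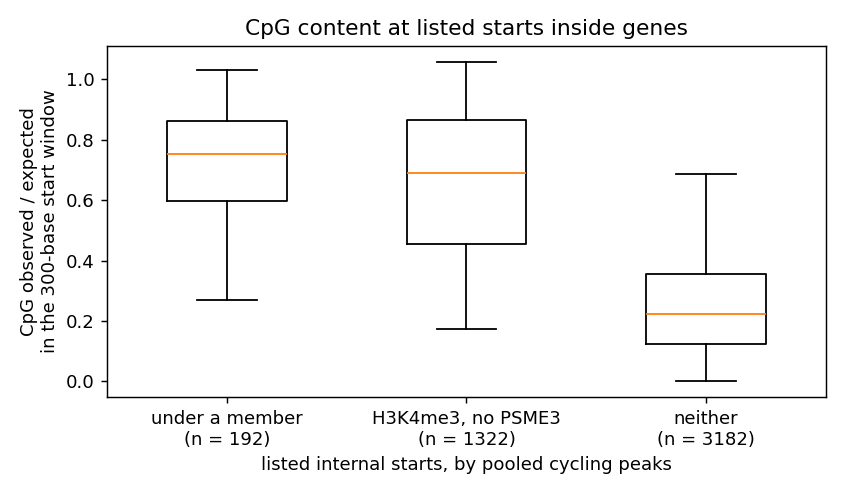
Observed over expected ratio of CG in the 300-base window of listed internal starts under a member (n = 192), with a pooled cycling H3K4me3 peak but no PSME3 peak (n = 1322) and with neither (n = 3182). Boxes span the quartiles with the median as a line and whiskers reach the 5th and 95th percentiles; the first and second groups, with medians of 0.754 and 0.691, lie above the last, at 0.224.

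Short promoter motifs were searched in the same windows on both strands. The GC box GGGCGG stood in 70.8% of the windows under members, in 57.0% of those with H3K4me3 alone, in 15.1% of those with neither and in 35.7% of all listed windows, and in 80.2% of those under boundary PSME3 peaks with H3K4me3. The TATA box TATAAA was found in 4.17% of the windows under members and in 13.6% of all windows. It was found in 3.93% under boundary PSME3 peaks, 7.56% with H3K4me3 alone and 15.6% with neither. CCGGAAG was found in 15.1% under members, 18.4% under boundary PSME3 peaks, 12.1% with H3K4me3 alone, 2.11% with neither and 8.86% of all windows. TGACTCA was found in 6.77% under members, 2.12% under boundary PSME3 peaks, 5.37% with H3K4me3 alone, 5.47% with neither and 5.20% of all windows, which is 13 of the 192 windows under members. CCAAT stood in 39.6% under members and in 31.5% to 45.4% of these other sets, and GCATGCGC in 4.17% and in 0.786% to 5.74%. The E-box CANNTG, bound by myogenic factors among others, was found in 56.25% under members, 54.2% under boundary PSME3 peaks, 65.8% with H3K4me3 alone, 78.5% with neither and 72.3% of all windows. CACGTG, which is one form of it, was found in 4.69% under members, 8.17% under boundary PSME3 peaks, 8.55% with H3K4me3 alone, 4.53% with neither and 7.15% of all windows. A match gives the letters only and does not show that a factor was bound.

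PSME3 sat on the covered starts without a lean to either side. The centre of the PSME3 peak lay at a median of -5.25 bp from the start, with negative values before it (quartiles -132 and 124 bp), it lay within 250 bp of the start in 79.7% of the 192 pairs, and it lay after the start in 93 of them. Since a covered start has to lie under the peak, part of this closeness is set by how the pairs were chosen. Over all members, 327 had their centre within 2 kb of an internal start, and 180 of these lay within 250 bp of it on one side or the other.

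**Figure D2:**
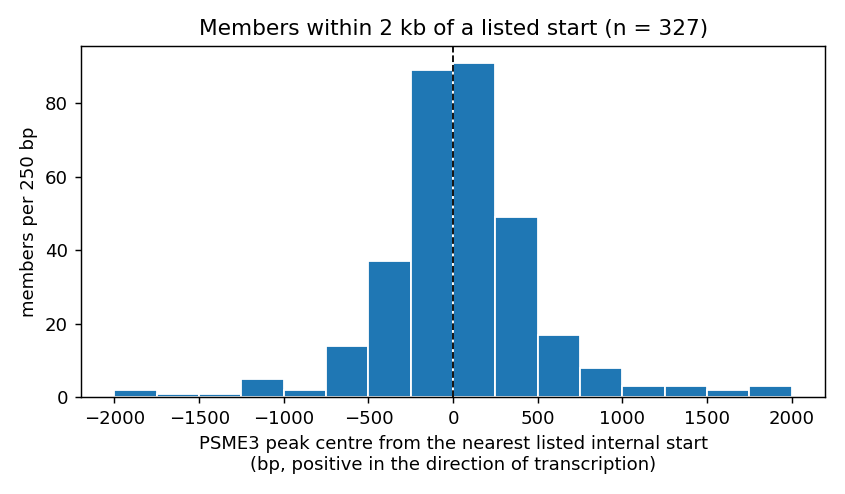
Number of members per 250 bp by the distance of the PSME3 peak centre from the nearest listed internal start (n = 327 within 2 kb), with negative values before the start. The counts are highest in the bins on either side of the start, with 89 and 91 members, and fall to 14 and 17 at 500 to 750 bp.

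Most stand-alone members had no listed start. The H3K4me3 peak of 889 of them (81.3%) covered none, that of 204 covered an internal start, and in 96 of those 204 the start lay outside the PSME3 peak. The table of starts gives 1 or a few starts per gene, so an absence from it does not show that no transcript begins there. Compared with intragenic H3K4me3 peaks that had no PSME3 peak, those holding a member more often covered a listed start, 193 of 1074 (17.97%) against 550 of 6283 (8.75%), and their median width was larger, 1522 bp against 761 bp.

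Among the members found in all 3 PSME3 replicate lists, the strongest were in Sertad2, Snx15, Lmna and Gnao1. Their PSME3 values chose them and are given as a description. Sertad2 codes for a transcriptional coregulator. Its member, at chr11:20631473-20632219 and 20804 bp from the nearest gene boundary, had a pooled PSME3 fold enrichment of 5.85, and 8.65, 5.26 and 6.58 in the 3 replicates. Its H3K4me3 peak was 3491 bp wide, with a fold enrichment of 14.9. The member in Snx15, a sorting nexin of endosomes, at chr19:6127910-6128255, had a pooled PSME3 fold enrichment of 5.46 and 8.31, 3.36 and 6.37 in the replicates, on an H3K4me3 peak of 3330 bp. Both were found in every cycling list and both kept an H3K4me3 peak in all 4 day 2 lists.

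Lmna, the gene of the nuclear lamins A and C, held 3 members on a single H3K4me3 peak of 17334 bp. The strongest, at chr3:88503000-88503955, 5977 bp from the nearest boundary, had a pooled PSME3 fold enrichment of 5.12, and 5.06, 4.87 and 7.28 in the replicates. It covered the start with a single CG shown above. A second Lmna member, with a fold enrichment of 3.96, covered another listed start, and the last, with 2.46, covered none and was in no replicate list. H3K4me3 was present at all 3 in every day 2 list.

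Gnao1, which codes for the alpha subunit of the G protein Go, differed from these. Its member, at chr8:93913497-93914773, was 54615 bp from the nearest boundary and had a PSME3 fold enrichment of 5.03, with 8.98, 4.48 and 4.17 in the replicates. Its H3K4me3 peak was only 1333 bp wide with a fold enrichment of 2.43, was not called in cycling replicate 1, and was absent from all 4 day 2 lists. A strong PSME3 peak stood on a weak H3K4me3 peak here. The other members of the 8 strongest found in all 3 replicates lay in Aph1b, a subunit of gamma-secretase (4.78), Maml3, a coactivator of Notch (4.77), the predicted gene Gm2048 (4.74) and Rhof, a small GTPase of filopodia (4.70). Those in Aph1b, Maml3 and Rhof were boundary-connected.

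Like the other pooled PSME3 peaks, most members were weak. The median PSME3 width was 391 bp and the median PSME3 fold enrichment 2.90 (quartiles 2.75 and 3.13), against 471 bp and 2.94 at boundary peaks with H3K4me3, 393 bp and 2.96 at intergenic ones and 431 bp and 2.92 over all pooled PSME3 peaks. Of the 1419 members, 762 (53.7%) were in no PSME3 replicate list, 521 in 1, 101 in 2 and 35 in all 3, where 45.8% of all pooled PSME3 peaks, and 37.6% of boundary and 52.6% of intergenic peaks with H3K4me3, were in none. Replicate 3 held 37.4% of the members, replicate 1 13.3% and replicate 2 7.68%, against 45.0%, 15.4% and 12.1% of all pooled PSME3 peaks, in the order of the lengths of those lists, which were 3070, 1200 and 776 peaks. The cycling H3K4me3 lists were longer, with 18077, 40999 and 19365 peaks in replicates 1, 2 and 3, and held 78.0%, 96.4% and 88.8% of the members, which the rule required to have pooled H3K4me3, against 83.8%, 93.9% and 88.6% of all pooled PSME3 peaks. At the limit of the rule, the nearest members inside it lay 1003 bp (Ttll8 and Gm38643), 1004 bp (Macrod1) and 1005 bp (Myo1c) from a boundary, with PSME3 fold enrichments of 2.46, 2.51 and 2.75. The nearest peaks inside genes that fell outside it lay at 996 bp (Klf1), 993 bp (Cavin1) and 991 bp (Tpd52), with 2.42, 2.60 and 2.93.

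The H3K4me3 under stand-alone members was of several kinds. Its median fold enrichment was 3.34, with quartiles of 2.58 and 8.68, against 14.8 for boundary-connected members, 15.7 for boundary peaks and 3.16 for intergenic peaks. Its median width was 1552 bp, against 4490, 3331.5 and 1242.5 bp. Those that covered a listed start had a median H3K4me3 fold enrichment of 14.1, close to boundary peaks, and the 985 others one of 3.19, close to intergenic peaks. The 6 stand-alone members with the strongest H3K4me3 lay in Ptch1, the receptor of hedgehog ligands (28.1), the zinc finger gene Hivep2 (27.2), the ubiquitin ligase gene Trim11 (27.1), Pdss2, of coenzyme Q synthesis (26.4), the transcription factor gene Runx1 (26.4) and Osbpl5, a lipid transfer protein (25.98). Their PSME3 fold enrichment was between 2.78 and 3.55 and they were in at most 1 PSME3 replicate list.

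Whether these sites still carried H3K4me3 after differentiation had begun was read from the 4 day 2 lists, which the rule did not use. In the order fresh native, fresh crosslinked, then frozen native, then frozen crosslinked, which is kept from here on, 46.7%, 66.9%, 61.6% and 70.3% of the members overlapped a day 2 H3K4me3 peak. The share for all pooled PSME3 peaks was 69.5%, 79.1%, 76.6% and 80.5%, so members were below the background in each list. Boundary peaks with H3K4me3 stood at 94.3%, 97.0%, 96.7% and 97.5%, and intergenic ones at 26.3%, 53.0%, 45.7% and 56.2%. Members were thus placed between the other classes in each preparation. The mean difference from boundary peaks was -35.0 percentage points ± 9.03 (SD, n = 4 preparations), and that from intergenic peaks 16.1 ± 3.02, each of one sign in 4 of 4 preparations (exact two-sided sign-flip test over preparations, p = 0.13, which 4 preparations cannot go below, so that no comparison here can reach 0.05). The classes also differed in the cycling H3K4me3 peak, whose median fold enrichment was 4.23 under members, 15.7 under boundary and 3.16 under intergenic peaks, and the part of this in the result was not tested. Within classes of H3K4me3 fold enrichment, 10 for boundary and 8 for intergenic peaks, the differences were -2.34 and 1.70 percentage points, and within 10 classes of width -12.7 and 3.19. At a fold enrichment of 10 or more there is little room for a difference from boundary peaks. There, 98.4% to 100% of stand-alone members were found in each day 2 list. Below 10, the shares of stand-alone members by fold class and list ran from 1.28% to 98.6%. Among peaks found in at least 2 PSME3 replicates, the difference from boundary peaks was -19.9.

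Stand-alone members kept the mark less often than boundary-connected ones, with 36.0%, 59.7%, 53.3% and 63.9% against 82.2%, 91.1%, 89.3% and 91.7%. The mean difference was -35.3 percentage points ± 7.94 (SD, n = 4, exact two-sided sign-flip test, p = 0.13). It turned to 1.96 within the 4 classes of H3K4me3 fold enrichment that held at least 20 of each, shrank to -4.97 within classes of width, and was -19.2 among members in at least 2 PSME3 replicates.

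Stand-alone members over a listed start nearly all had H3K4me3 at day 2. Of these 108, 96.3%, 98.1%, 98.1% and 98.1% had a day 2 peak, and 104 had it in all 4 lists. The 985 without a listed start had one in 29.4%, 55.5%, 48.4% and 60.1%. All 64 boundary-connected members over a listed start had one in each list. The mean difference was 49.3 percentage points ± 12.6 (SD, n = 4, exact two-sided sign-flip test, p = 0.13), in a comparison added after the data were seen. With boundary-connected members included it was 42.3 ± 11.3. Here too the strength of the cycling mark differed between the sets. The difference was 2.48 within the 3 classes of H3K4me3 fold enrichment that held at least 20 of each and 18.1 within the 4 such classes of width, and with boundary-connected members included 2.78 and 13.3. Of the 108, 87 had an H3K4me3 fold enrichment of 10 or more, where 98.4% to 100% of the 251 stand-alone members were found in each day 2 list, so the values within fold classes left little room for a difference. Among members in at least 2 PSME3 replicates the difference was 35.2, over 27 and 76 members.

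**Figure D3:**
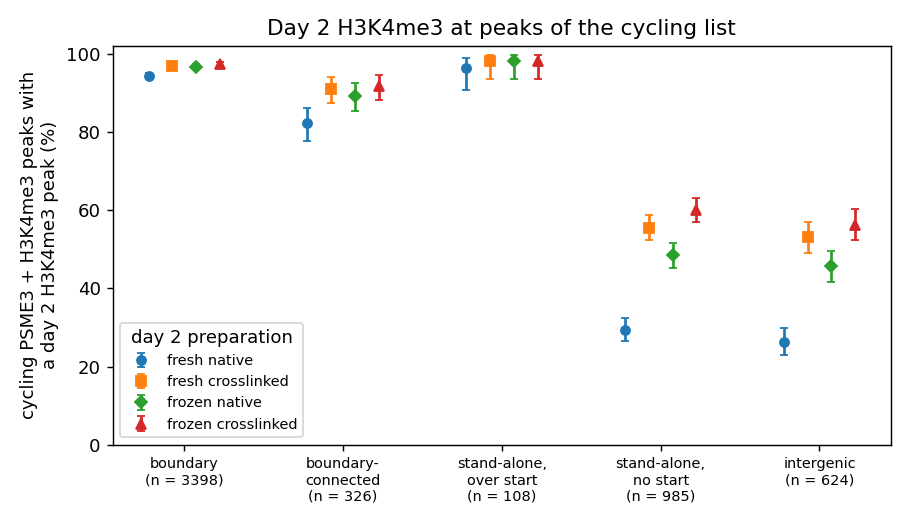
Percent of cycling PSME3 peaks with H3K4me3 that overlapped an H3K4me3 peak in each day 2 preparation (points), by class, with exact 95% Clopper-Pearson intervals as bars, which cover counting error only. Stand-alone members over a listed start lie at 96.3% to 98.1%, beside boundary peaks, and those without a listed start lie at 29.4% to 60.1%, beside intergenic peaks.

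By single members, 654 (46.1%) had H3K4me3 in all 4 day 2 lists, 173 in 3, 108 in 2, 132 in 1 and 352 (24.8%) in none. The number of day 2 lists rose with the strength of the cycling mark. The median cycling H3K4me3 fold enrichment was 2.48, 2.85, 3.00, 3.91 and 14.4 for members in 0, 1, 2, 3 and 4 lists, and the median H3K4me3 width was 776.5, 1158, 1449, 1762 and 3681.5 bp. The median PSME3 fold enrichment did not follow it, at 2.91, 2.86, 2.87, 2.94 and 2.90.

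**Figure D4:**
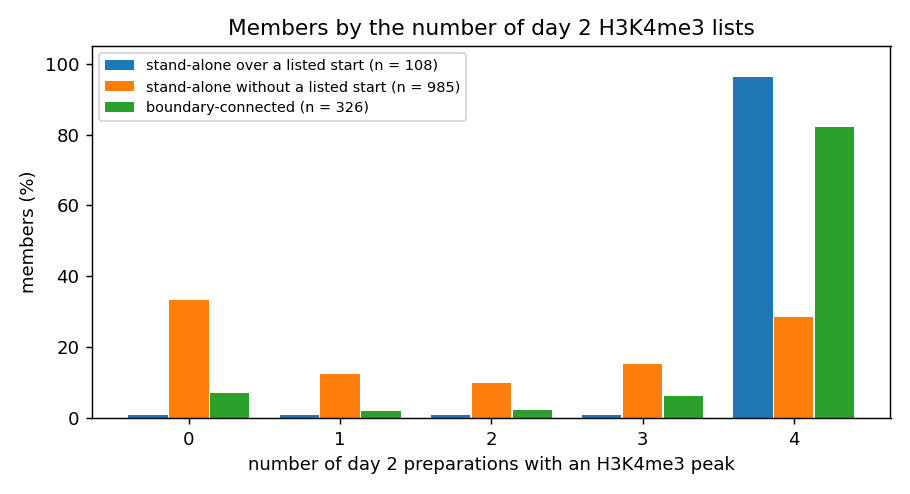
Percent of members, in 3 sets, by the number of day 2 preparations in which they overlapped an H3K4me3 peak. Of the stand-alone members over a listed start, 96.3% were in all 4 lists. Of those without one, 33.3% were in none, 12.6% in 1, 10.1% in 2, 15.4% in 3 and 28.6% in all 4. Of the boundary-connected members, 82.2% were in all 4.

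Among the 352 members without day 2 H3K4me3, those with the strongest cycling PSME3 lay in Gnao1 (5.03), Sh3bp2, an adaptor protein (4.69), Snx2, of the retromer (4.19), Exoc6b, of the exocyst (4.18), Il1rl1, the receptor of interleukin 33 (4.04) and the cAMP phosphodiesterase gene Pde4d (4.04). All 6 were stand-alone, none covered a listed start, and their H3K4me3 fold enrichment was between 2.28 and 3.47. Those in Gnao1 and Sh3bp2 were in all 3 PSME3 replicate lists, those in Snx2 and Exoc6b in 1, and those in Il1rl1 and Pde4d in none.

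Intragenic H3K4me3 peaks that held a member were then set against those without PSME3. At day 2, 39.0%, 63.1%, 55.1% and 66.6% of the 1074 with a member overlapped an H3K4me3 peak, against 18.3%, 38.3%, 31.4% and 40.5% of the 6283 without. The mean difference was 23.8 percentage points ± 2.29 (SD, n = 4, exact two-sided sign-flip test, p = 0.13). It was 0.134 within 10 classes of H3K4me3 width, where the preparations gave between -1.40 and 2.42, and 1.67 within 10 classes of fold enrichment, where they gave between -0.201 and 4.16, so that the sign differed between preparations in both. It was 42.8 for the 101 H3K4me3 peaks whose PSME3 peak was in at least 2 replicates. Where the cycling H3K4me3 fold enrichment was under 2.5, stand-alone members were found at day 2 in 1.28%, 14.5%, 4.68% and 19.6%, and H3K4me3 peaks without PSME3 in 1.82%, 15.8%, 6.28% and 17.2%. Where it was 10 or more, which held 251 stand-alone members, 87 of them over a listed start, the values were 98.4%, 99.6%, 100% and 99.6% against 99.6% in each preparation. At 4 to 6, members stood at 40.0% against 52.7% for the peaks without PSME3 in the fresh native list. In the other lists they stood between 83.8% and 90.0% against 86.4% and 90.0%. In these last comparisons, under 2.5, at 10 or more and at 4 to 6, members were scored by the PSME3 peak. The peaks without PSME3 were scored by the whole H3K4me3 peak. A wider interval overlaps more easily, so these values do not compare like with like.

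**Figure D5:**
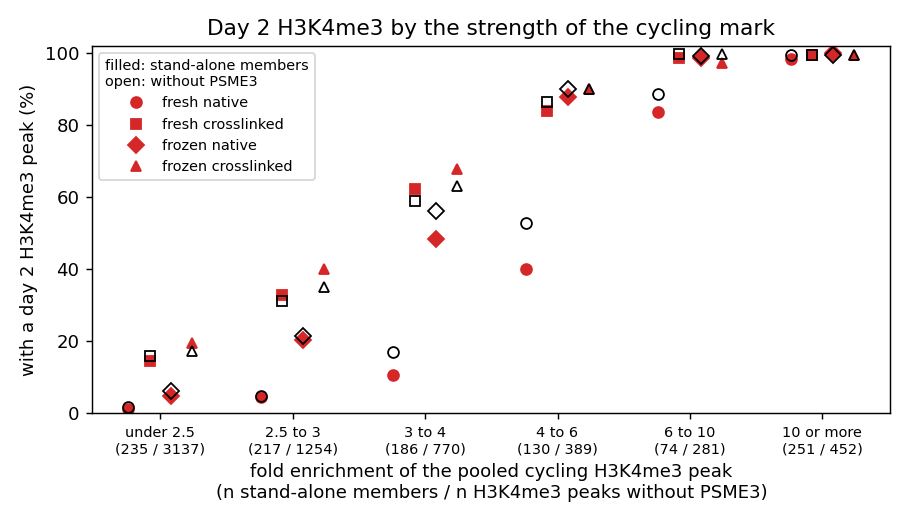
Percent with a day 2 H3K4me3 peak in each preparation (symbols) by class of the pooled cycling H3K4me3 fold enrichment, for stand-alone members (filled) and intragenic H3K4me3 peaks without PSME3 (open), with the number of each under the axis. Both rise from under 20% in the lowest class to over 98% in the highest. The widest gap within a class is 40.0% against 52.7%, at 4 to 6 in the fresh native list. Members are scored by the PSME3 peak and the others by the whole H3K4me3 peak, so the measures differ.

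Day 2 PSME3 was nearly absent from the members. None overlapped a PSME3 peak of either fresh preparation (0 of 1419, with an exact 95% interval up to 0.260%), 11 (0.775%) did in the frozen native and 6 (0.423%) in the frozen crosslinked list, where the shares for all pooled PSME3 peaks were 0.241%, 0.206%, 3.11% and 1.27%. The day 2 PSME3 lists were short, with 23, 18, 186 and 77 peaks. The mean difference from boundary peaks was -1.18 percentage points ± 1.69 (SD, n = 4, exact two-sided sign-flip test, p = 0.13), smaller than its spread, and it fell to -0.369 without the frozen native preparation. It was -4.00 among peaks in at least 2 cycling replicates. In all, 13 members had a day 2 PSME3 peak, and 4 of them had one in both frozen lists. These lay in Sertad2 (day 2 PSME3 fold enrichment 9.89 frozen native and 4.29 frozen crosslinked), Lmna (5.95 and 4.86), Rhof (5.66 and 5.78) and Hnrnpl, which codes for a splicing factor (5.41 and 4.33). The next by cycling PSME3 lay in Specc1 (6.25), Maml3 (4.84), Pdlim7, a protein of the actin cytoskeleton (4.79), and Has1 and Spaca6 (4.59), each in the frozen native list only. All 8 had H3K4me3 in the 4 day 2 lists, beside 46.1% of all members and 82.2% of boundary-connected ones. Those in Rhof, Hnrnpl, Maml3, Pdlim7, and Has1 and Spaca6 were boundary-connected.

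The members lay in 1269 genes, or 3.85% of the 32952 genes longer than 2 kb. Hosts were long, with a median span of 58884 bp against 14653 bp for all genes of over 2 kb, and a longer gene has more room for a member. Of the hosts, 1100 held 1 member, 137 held 2 and 32 held 3 or more. In hosts whose strand was known, stand-alone members lay at a median of 44.5% of the host's length (quartiles 24.2% and 66.9%, n = 874 pairs of member and host), and boundary-connected ones at 17.1% (quartiles 5.18% and 38.4%, n = 277), with a median distance from the host's start of 27565 and 2499 bp. A protein-coding gene hosted 1287 members, and 124 lay in genes of long noncoding RNAs alone.

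Pde4d, of 1301793 bp, held the most members, 7, all stand-alone. Their H3K4me3 fold enrichment was 2.66, 2.87, 5.50, 24.4, 16.2, 16.2 and 3.21 along the chromosome, and they were found in 0, 0, 3, 4, 4, 2 and 3 day 2 H3K4me3 lists. Members with strong and with weak H3K4me3 thus lay in the same gene, and those absent at day 2 were weak. None covered a listed start, and 1 of the 7 was in a PSME3 replicate list. Tns1, which codes for a tensin of focal adhesions, and Cubn, an endocytic receptor, held 5 members each. All 5 in Tns1 were found in at least 2 day 2 lists, and of those in Cubn, 3 were in none, 1 in 1 and 1 in 4. Hspg2, Iffo2, Pakap, Plec, Ralgps1 and Sorcs2 held 4 each.

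Of 27 genes listed for known internal promoters, 10 hosted 15 members (37.0% against 3.85% of all genes over 2 kb, with a median span of 175666 bp). In Runx1, which is known for a distal and a proximal promoter, the member at chr16:92696791-92697422 covered the start shown above, 64787 bp from the nearest boundary, on an H3K4me3 peak of 8067 bp. Its H3K4me3 fold enrichment was 29.0, 13.1 and 36.1 in the cycling replicates and 7.50, 10.8, 19.1 and 14.0 in the day 2 lists, while its PSME3 peak, with a pooled fold enrichment of 2.87, was in no replicate list. The Gnas member, 1 of 2 in the list over a listed start, was boundary-connected and had H3K4me3 in 4 day 2 lists. Plec, which codes for the cytolinker plectin and has many first exons, held 3 stand-alone members on an H3K4me3 peak of 16883 bp, the widest of them 4296 bp and found in all 3 PSME3 replicates, and a boundary-connected one. All 4 had H3K4me3 in each day 2 list, and none covered a listed start. The members in Dst, Nr3c1, Macf1, Ppargc1a, Ptk2 and Speg covered no listed start either. Ptk2, which codes for focal adhesion kinase, was the one host of this list whose member had H3K4me3 in no day 2 list.

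Genes of adhesion and the cytoskeleton, the second list, hosted 36 members in 20 of 42 genes (47.6% against 3.85% of all genes over 2 kb, with a median span of 61441 bp), 27 of them stand-alone. The list also named Sept9, which RefSeq calls Septin9. It was not matched, and its 3 members are not in these counts. Of the 36, 17 had H3K4me3 in all 4 day 2 lists and 7 in none, where 46.1% and 24.8% of all members did. The strongest of the 36 by PSME3 lay in the kinase gene Src (5.004). Its H3K4me3 fold enrichment was 2.76, and it had H3K4me3 in 2 day 2 lists. The next lay in Tns1 (3.51), in Dst (3.40) and in Plec (3.26). Outside the rule for named members and chosen after their values were seen, the 2 members in Itgb3, which codes for integrin beta 3, and the 3 in Tln2, which codes for talin 2, were all stand-alone, had H3K4me3 fold enrichments between 2.42 and 2.68, and were in no day 2 H3K4me3 list. The 2 in Myadm were boundary-connected, and both were in all 4.

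Chromatin and transcription regulators hosted 20 members in 13 of 40 genes (32.5% against 3.85%, with a median span of 88298.5 bp), of which 14 had H3K4me3 in all 4 day 2 lists and 3 in none, beside 46.1% and 24.8% of all members. Hdac4, a histone deacetylase that restrains MEF2 factors in muscle, held one over a listed start at chr1:92180318-92180859, with a PSME3 fold enrichment of 3.96 and 4.82, 4.02 and 4.79 in the replicates. Its H3K4me3 fold enrichment was 5.51, 8.03, 17.6 and 11.6 in the day 2 lists. The stronger of the 2 members in the repressor gene Cic, at chr7:25281778-25282902 (PSME3 3.63), also covered a listed start, and both had H3K4me3 in all 4 lists. The forkhead gene Foxk1 held 2 members, neither over a listed start, of which the stronger (3.41, with an H3K4me3 fold enrichment of 6.45) was in all 4 lists and the other (2.73, with 2.26) in none. Genes of the extracellular matrix hosted 8 members in 5 of 27 genes (18.5% against 3.85%, with a median span of 67808 bp). In Hspg2, which codes for the basement membrane proteoglycan perlecan, the 2 boundary-connected members (PSME3 2.90 and 2.72) were in 4 day 2 H3K4me3 lists, and the stand-alone ones (3.56 and 3.14) in 1 and 0. The Lamb1 member (2.81), in the gene of a laminin chain, was in 3.

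The remaining lists were of myogenic regulators and of sarcomere and fusion genes. Of the 31 myogenic regulators over 2 kb, 3 were hosts (9.68% against 3.85% of all genes over 2 kb, with a median span of 19135 bp). Srf and Mef2d, which code for transcription factors of muscle genes, held a boundary-connected member each, with H3K4me3 in all 4 day 2 lists, and the Srf member covered a listed start. Tcf4, which codes for an E protein that pairs with myogenic factors, held 2 stand-alone members that were in 3 and 1 day 2 lists. Of 39 genes of the sarcomere and of fusion, Neb alone, the gene of nebulin, was a host (2.56% against 3.85%, with a median span of 23638 bp). Its H3K4me3 peak of 422 bp was in the pooled list but in no cycling replicate list and no day 2 list.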

How the data were processed

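The authors used Trim Galore for trimming, Bowtie2 for alignment and MACS2 for peaks, which they called per library and on the 3 cycling replicates in aggregate. The build is mm10 per the submitters' processing notes, and versions are not given in the sources used here. The deposited lists give each peak's fold enrichment, a ratio to background, and its q-value as -log10, always under a q of 0.1. Of 21 libraries, 14 were used, and the 7 IgG libraries were not analysed here.

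Python 3.11.15 (pandas 2.3.3, numpy 2.4.6, scipy 1.17.1) computed the overlaps of at least 1 bp, the distances and the tests, with functions tested on simulated data. Genes came from 49997 RefSeq genes of GRCm38.p6, without strand. Strands came from the RefSeq promoter windows (250 bases before to 50 from the start). The planned sequence windows at peak centres were not run, since no genome was used here, and promoter windows took their place. Differences between shares of peaks were tested over the 4 day 2 preparations with a two-sided exact sign-flip permutation test, whose smallest p is 0.13. The labels do not say whether the preparations came from separate cultures, so the spread may be technical. Intervals are Clopper-Pearson intervals at 95%. Members to name were the strongest by PSME3 or H3K4me3, those with day 2 PSME3, those without day 2 H3K4me3, those nearest the 1 kb limit, the fullest hosts (ties included) and up to 4 per gene list. The members, gene lists and tests were chosen with earlier results of these data known. Alternatives covered q-values, overlap, distance, gene type, replicate support, list length, and H3K4me3 width and fold enrichment. Each cycling PSME3 replicate and each day 2 preparation was also left out, but no cycling H3K4me3 replicate was. Some members that these rules select are not reported here.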

Additional observations from a re-analysis of the deposited data

How the results depend on the processing

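The number of members, 1419, fell to 633 at a PSME3 q-value of at most 0.01, to 136 in at least 2 PSME3 replicate lists, and to between 256 (without replicate 3) and 622 (without replicate 2) when a PSME3 replicate was left out and a peak in a remaining one was required, 572 without replicate 1. The other 6 alternatives gave between 1040 and 1619. The mean day 2 differences kept their direction in 86 of 87 alternatives. The exception was stand-alone against boundary-connected members within classes of H3K4me3 fold enrichment, 1.96 percentage points. The difference of H3K4me3 peaks with against without PSME3 kept its sign in the mean alone, at 0.134 within classes of width and 1.67 within classes of fold enrichment, and changed sign between preparations. With a preparation left out, the differences from boundary and intergenic peaks ran from -37.6 to -30.8 and from 14.6 to 16.8, that of H3K4me3 peaks with against without PSME3 from 23.1 to 24.8, that of stand-alone against boundary-connected members from -37.8 to -31.7, that of members over a listed start from 37.1 to 45.6 and of stand-alone ones from 43.5 to 53.1, and that of day 2 PSME3 from -1.56 to -0.369. Leaving 3 preparations allows no p below 0.25. The results on listed starts, with their alternatives, were added after the data were seen, and counting starts within 1 kb gave 45.0 and 50.7. Windows of the whole peak or of 100 bp at its centre were not run for the sequence features. By replicate number, no paired analysis was possible because the day 2 libraries carry none. The sign-flip tests pair the classes of peaks by preparation.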

Other observations

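The H3K4me3 lists differed in length, so each was cut to its 14372 peaks with the smallest q-values, the length of the shortest day 2 list, in a check added after the data were seen. At that length, 52.6%, 59.6% and 56.5% of the stand-alone members were found in cycling replicates 1, 2 and 3, and 36.0%, 47.4%, 49.4% and 50.9% in the day 2 lists of fresh native, fresh crosslinked, then frozen native, then frozen crosslinked cells. The cycling and day 2 values did not overlap, and the same held for boundary-connected members, at 91.1% to 92.6% against 82.2% to 89.0%, and for boundary peaks, at 96.5% to 97.4% against 94.3% to 96.3%. All cycling cells were frozen native, so only the frozen native day 2 list, at 49.4% of the stand-alone members, shared their preparation. The share over all pooled PSME3 peaks was not computed at this length. The cycling H3K4me3 lists belong to the data that chose the members, so this comparison has no test. At full length, 653 stand-alone members had H3K4me3 in the fresh crosslinked and 394 in the fresh native list, which held 20203 and 14372 peaks, and 698 and 583 in the frozen lists of 20245 and 15431 peaks. At equal length these were 518 and 394, and 556 and 540, with 1 library for each preparation.

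Internal starts without H3K4me3 or PSME3 in the pooled cycling lists seldom gained the mark. Of these 3182, 6, 23, 24 and 25 had a day 2 H3K4me3 peak in the same order of preparations. Among the genes listed for known internal promoters, the one such start with day 2 H3K4me3 was in Myl1, which codes for fast myosin light chains and makes its shorter form from an internal promoter. It had a day 2 peak in 3 of the 4 lists, and no member lay in that gene.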
